A study of Mus musculus with 91 samples.

Results

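The Eph receptors, ephrins, semaphorins, plexins and neuropilins of the mouse caudal lateral epiblast were taken from the count table by gene symbol. The families chosen were Epha and Ephb, Efna and Efnb, Sema with a number and a letter, Plxna and Plxnb, Plxnc1, Plxnd1, Nrp1 and Nrp2, and they held 53 of the 53379 genes of the table. The cells came from wild type outbred MF1 embryos at the early headfold stage, close to embryonic day 8.0, from epiblast lateral to the node and to the front of the primitive streak. The dissected pieces were pooled, and single cells were sorted by FACS into wells and sequenced by Smart-seq2, a full-length method without molecular identifiers. There was no treated or mutant group, and no embryo of origin was named for any cell. The 91 cells were split into 43 epiblast-like cells, in which Nkx1-2 had more counts per 1000000 (CPM) than Aldh1a2, and 48 mesoderm-like cells, in which it had not. Nkx1-2 is a transcription factor gene of the caudal epiblast and Aldh1a2 encodes the retinoic acid enzyme of nascent paraxial mesoderm, and since they made the classes their own levels are no result.

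Eph receptors are receptor tyrosine kinases that bind ephrins on the surface of neighbouring cells, and the signal runs both into the receptor cell and back into the ephrin cell. EphA receptors mostly bind the lipid-anchored ephrin-A proteins and EphB receptors the transmembrane ephrin-B proteins, with Epha4 binding both kinds. Semaphorins are secreted or membrane-bound ligands of plexins, and most secreted class 3 semaphorins need a neuropilin as co-receptor. Both systems are known for repulsion, and Eph and ephrin signalling for keeping cell groups apart in the embryo, including at somite borders.

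The cells are 1 pooled sample, so no test was made, and every SD is a spread over cells, which says nothing of embryos. Genes with a read in 3 or more cells counted as measured, and a gene was called higher in a class when its mean CPM, with 1 CPM added, was at least 2-fold that of the other class. The epiblast-like cells had total counts of 1260653 to 3927737 (median 2450073), and the mesoderm-like cells 709866 to 4439571 (median 2589802). Without the gene that made the classes, 7 of 7 markers of caudal epiblast were read in 50% or more of the epiblast-like cells and 4 also in 50% or more of the mesoderm-like cells. Of 7 markers of paraxial mesoderm, 6 reached that share in the mesoderm-like cells and 0 in the epiblast-like cells. No marker of endothelium and blood, a tissue in which several of these guidance genes are used, reached 50% of the cells of either class. Of its 10 markers 5 had no read in epiblast-like and 6 had none in mesoderm-like cells, and the summed level was 0 to 40.3 CPM and 0 to 54.6 CPM per cell. In 4 cells, 1 epiblast-like and 3 mesoderm-like, Nkx1-2 and Aldh1a2 lay within 4-fold of each other.

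Of the 53 genes 41 were measured. In epiblast-like cells 12 of them (29.3%) were higher, against 8.18% of all 18054 measured genes, and in mesoderm-like cells 9 (22%) were higher, against 9.55%. The other 20 differed by less than 2-fold. Of the 12 and 9 called, 5 and 2 were read in under 25% of the cells of the higher class. Among the 19 whose mean reached 10 CPM, 5 (26.3%) were higher in each class, against 5.59% of all genes at that level in the epiblast-like and 7.80% in the mesoderm-like direction. The median log2 ratio of epiblast-like over mesoderm-like CPM was -0.11 for the 41 genes and 0.0071 for all measured genes. Of the 23 ligand genes measured 6 were higher in epiblast-like and 5 in mesoderm-like cells, and of the 18 receptor genes 6 and 4. A cell held reads of 7 to 22 of the 53 genes in the epiblast-like class, with a median of 14, and of 8 to 23 in the mesoderm-like class, with a median of 15. With every cell thinned to 500000 counts the ranges were 7 to 21 and 6 to 23, both with a median of 13.

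**Figure D1:**
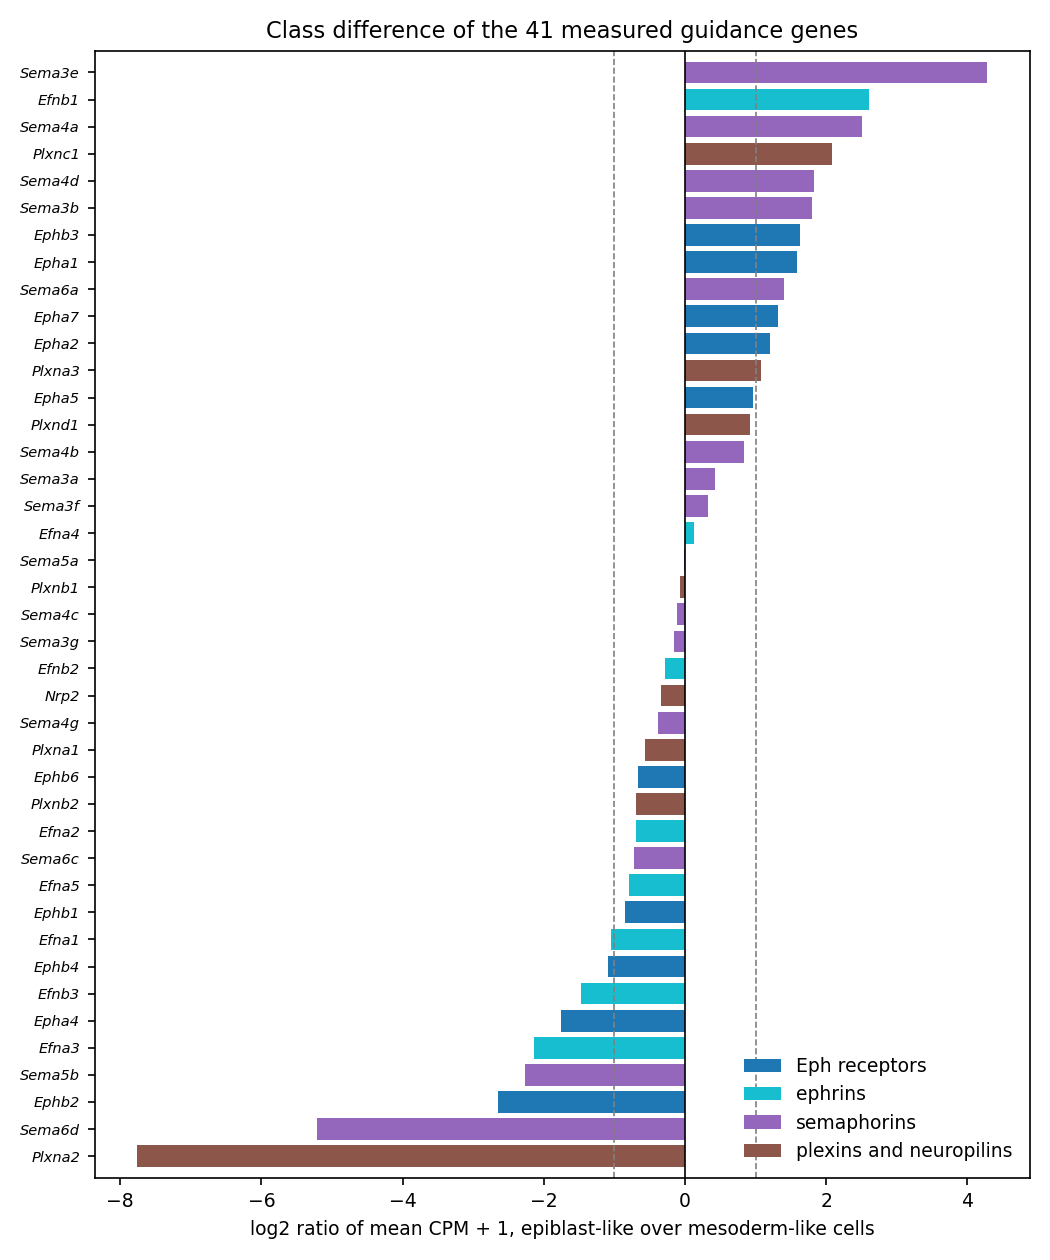
Log2 ratio of mean CPM with 1 CPM added, epiblast-like over mesoderm-like cells, for the 41 measured genes, coloured by family, with dashed lines at 2-fold. Plxna2 (-7.76) and Sema6d (-5.21) stand at the mesoderm-like end and Sema3e (4.28) and Efnb1 (2.60) at the epiblast-like end, while 20 genes lie between the dashed lines.

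Among genes read by 25% or more of the higher class, Plxna2 and Sema6d had the largest ratios towards the mesoderm-like class, and Sema3e and Efnb1 the largest towards the epiblast-like class. The 250 bases before a RefSeq start of each gene are shown, on build GRCm38.p6 and all on the plus strand. They are chr1:194619579-194619828 for Plxna2, chr2:124089719-124089968 for Sema6d, which is the first of its 2 RefSeq starts, chr5:14025026-14025275 for Sema3e and chrX:99135811-99136060 for Efnb1. The Plxna2 window lies inside the gene span given below, which begins at 194618218. The window of the second Sema6d start, chr2:124653331-124653580, held an E-box (CACCTG or its reverse complement) and no T-box half-site. Which starts these cells use was not tested. Capitals mark a T-box half-site (TCACAC) in Sema6d and the reverse complement of a Lef/Tcf core (CTTTGA) in Sema3e.
Plxna2: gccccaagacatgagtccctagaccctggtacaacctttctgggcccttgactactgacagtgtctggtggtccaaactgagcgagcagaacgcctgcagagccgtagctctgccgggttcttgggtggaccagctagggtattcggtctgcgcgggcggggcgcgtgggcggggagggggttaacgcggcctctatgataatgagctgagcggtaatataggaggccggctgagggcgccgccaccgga
Sema6d: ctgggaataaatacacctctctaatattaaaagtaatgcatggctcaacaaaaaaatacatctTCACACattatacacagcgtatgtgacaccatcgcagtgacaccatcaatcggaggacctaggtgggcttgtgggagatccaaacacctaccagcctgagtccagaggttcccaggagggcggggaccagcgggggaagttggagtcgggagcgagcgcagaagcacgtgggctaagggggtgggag
Sema3e: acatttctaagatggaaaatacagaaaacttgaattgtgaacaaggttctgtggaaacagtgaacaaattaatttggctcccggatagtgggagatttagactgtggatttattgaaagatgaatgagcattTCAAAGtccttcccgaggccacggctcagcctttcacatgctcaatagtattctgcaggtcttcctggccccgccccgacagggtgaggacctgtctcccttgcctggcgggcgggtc
Efnb1: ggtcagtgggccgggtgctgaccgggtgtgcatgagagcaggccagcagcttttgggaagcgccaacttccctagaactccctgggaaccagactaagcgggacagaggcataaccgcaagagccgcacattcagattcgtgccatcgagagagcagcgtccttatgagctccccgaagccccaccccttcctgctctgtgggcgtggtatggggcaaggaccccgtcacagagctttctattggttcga

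Each of these motifs, and the E-box CACCTG, was searched on both strands. Windows were found for 47 of the 53 genes, 61 in all. The T-box half-site was in 9.84% of these windows and in 12.3% of all 32851 RefSeq windows, the Lef/Tcf core in 4.92% and 13.8%, and the E-box in 13.1% and 17.2%. None of the 3 motifs was more frequent before the guidance genes than before all genes. The windows of the guidance genes were richer in CpG, with a median of 16 per window against 6, and in G and C, with 64.4% against 52.4%. Among the 4 shown, the Plxna2 window held 18 CpG, that of Efnb1 13, that of Sema6d 9 and that of Sema3e 7. A match is a description of the letters and not a site of binding.

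Plxna2, a plexin that is a receptor of class 6 semaphorins, was the gene of the group that separated the classes most. It lies on chromosome 1 (194618218 to 194816869, GRCm38). Its lowest, median and highest levels were 0, 0 and 0.719 CPM over the 43 epiblast-like cells, and 0.520, 203 and 647 CPM over the 48 mesoderm-like cells. Every mesoderm-like cell had a read of it (100%, exact 95% interval 92.6 to 100%), against 3 of 43 epiblast-like cells (6.98%, 1.46 to 19.1%), which held 1, 2 and 2 reads. The classes overlapped through 1 mesoderm-like cell with 2 reads, and the next lowest mesoderm-like cell was at 10.3 CPM. The means were 0.0380 ± 0.145 CPM (SD, n = 43 cells) and 224 ± 165 CPM (SD, n = 48 cells), from 5 and 28022 reads in all. The log2 ratio was -7.76. Plxna2 is in the mesoderm marker list that the study drew from these same cells, and Efnb1 and Sema3e are in its epiblast list, so that those lists are not independent evidence of the directions given here.

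The other plexins did not share this pattern. Plxna1, which binds class 6 and, with neuropilins, class 3 semaphorins, ranged from 0 over a median of 12.6 to 107 CPM in epiblast-like cells and from 0 over 5.44 to 240 CPM in mesoderm-like cells. It had reads in 27 of 43 and 28 of 48 cells, and its log2 ratio was -0.57. Plxnb1 and Plxnb2, receptors of class 4 semaphorins, had mean levels of 21.4 ± 38.7 and 37 ± 51.5 CPM in epiblast-like cells and 22.5 ± 29.8 and 60.9 ± 102 CPM in mesoderm-like cells, with log2 ratios of -0.07 and -0.70. Their ranges overlapped, with 19 and 27 cells holding Plxnb1 reads and 25 and 31 holding Plxnb2 reads. Plxna1 shares 10.7% of its exon length with a transcript on the other strand that had 177 reads in all.

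Plexins C1 and D1 were read in few cells and Nrp2 in more. Plxnd1, the receptor that Sema3e can bind without a neuropilin, had reads in 5 of 43 epiblast-like and 7 of 48 mesoderm-like cells, at 3.64 ± 16.4 and 1.45 ± 6.54 CPM. Nrp2, a co-receptor of class 3 semaphorins, was read in 15 epiblast-like and 23 mesoderm-like cells at 16.9 ± 40.4 and 21.6 ± 35.6 CPM. Nrp1 was not measured.

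Summed over the A plexins and scaled by exon length (RPKM, the CPM divided by the exon length in kilobases), the level per cell was 3.23 ± 3.83 RPKM in epiblast-like cells and 17.2 ± 12.2 RPKM in mesoderm-like cells. Plxna1 made up 74.1% of the first sum and Plxna2 75.6% of the second, so that the leading A plexin changed between the classes. The B plexins summed to 7.02 ± 7.45 and 10.2 ± 12.9 RPKM.

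**Figure D2:**
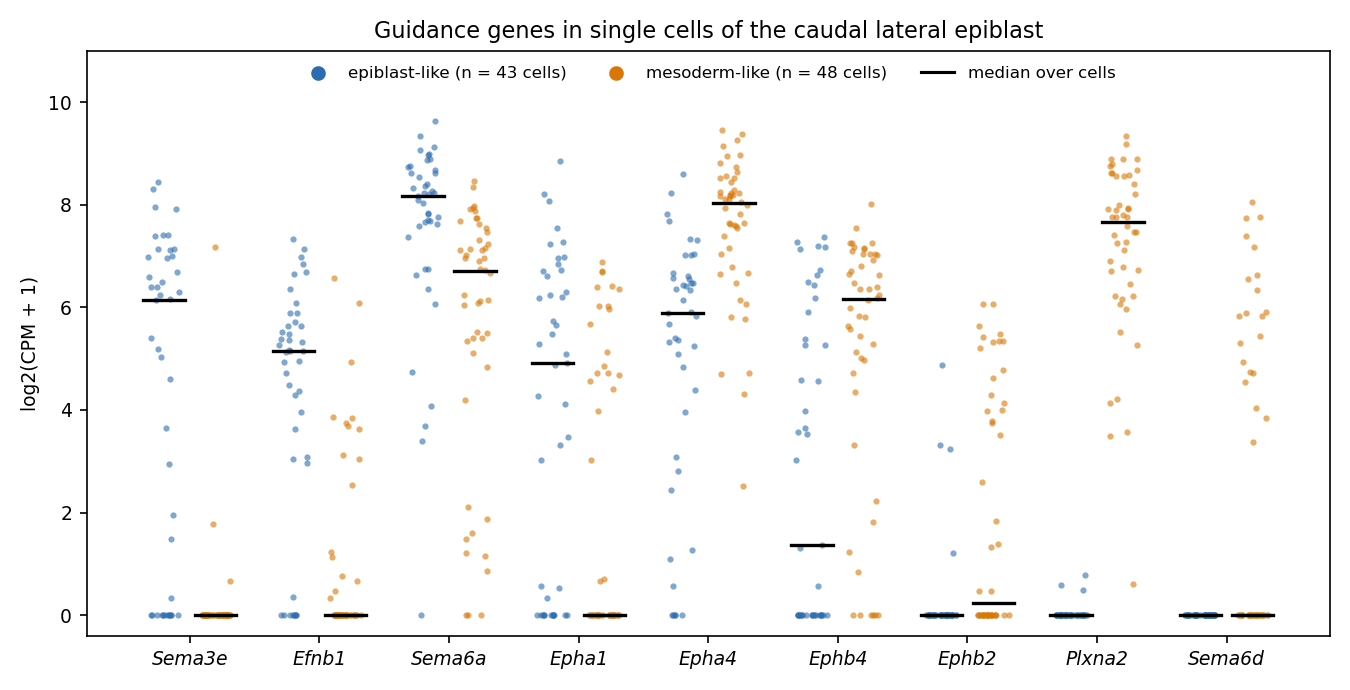
Level of 9 guidance genes in each cell as log2(CPM + 1), with 43 epiblast-like cells in blue, 48 mesoderm-like cells in orange and black lines at the medians. Plxna2 separates the classes but for 1 mesoderm-like cell near 0, Sema6d has points above 0 in the mesoderm-like class alone, and Sema3e has 3 mesoderm-like cells above 0.

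Of the semaphorins, Sema3e, a secreted class 3 semaphorin on chromosome 5 (14025276 to 14256689), was higher in epiblast-like cells. It ranged from 0 over a median of 69.6 to 348 CPM in them and from 0 over 0 to 144 CPM in mesoderm-like cells. Reads were found in 31 of 43 epiblast-like cells (72.1%, 56.3 to 84.7%) and in 3 of 48 mesoderm-like cells (6.25%, 1.31 to 17.2%). Of those 3 cells 1 held 373 reads and the others 6 and 1, so that a single cell gave nearly all of the mesoderm-like level. The means were 77.8 ± 89.2 and 3.07 ± 20.8 CPM, a log2 ratio of 4.28. The 12 epiblast-like cells without a read overlapped the mesoderm-like cells.

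Sema6a, a membrane-bound ligand of Plxna2 on chromosome 18 (47235598 to 47368870), was present in nearly all cells of both classes at different levels. It ranged from 0 over 288 to 790 CPM in epiblast-like cells and from 0 over 103 to 351 CPM in mesoderm-like cells, with reads in 42 of 43 and 45 of 48 cells. The means of 285 ± 183 and 107 ± 92.3 CPM differed 2.64-fold with 1 CPM added (log2 ratio 1.40), and the ranges overlapped. Sema6a made up 99.4% of the summed class 6 level of 32.7 ± 20.9 RPKM in epiblast-like cells and 75.1% of the 16.3 ± 13.2 RPKM in mesoderm-like cells.

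Sema6d, the other class 6 semaphorin with a class difference, lies on chromosome 2 (124089969 to 124667770) and can signal through Plxna1. It had 0 reads in 43 epiblast-like cells, which allows a share of up to 8.22% of cells with a read. In mesoderm-like cells it ranged from 0 over a median of 0 to 265 CPM, with reads in 21 of 48 cells (43.8%, 29.5 to 58.8%). The mesoderm-like mean was 36 ± 64 CPM. The log2 ratio was -5.21. With reads and total counts summed by class, its 5051 reads gave a level 1405-fold that of 3 counts over all epiblast-like cells. That floor of 3 counts takes reads as independent, although several reads can stem from 1 molecule. It also leaves out the share of up to 8.22% of cells allowed above. The 1405-fold is therefore no lower bound of the class difference. All 21 cells held at least 5 reads, so the gene was either clearly read or not read at all in a cell.

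The class 4 and class 5 semaphorins held genes that were higher in either class. Sema4b was read in 43 of 43 epiblast-like and 46 of 48 mesoderm-like cells and ranged from 0.706 over 28.2 to 127 CPM in the first and from 0 over 14 to 95.1 CPM in the second. Its log2 ratio was 0.83, under the 2-fold rule. Sema4d, a ligand of B plexins, ranged from 0 to 76.4 CPM in epiblast-like and from 0 to 40.1 CPM in mesoderm-like cells, with medians of 0. It was read in 14 and 6 cells, at 11 ± 21.4 and 2.38 ± 8.96 CPM (log2 ratio 1.82). Sema5b, a membrane-bound semaphorin that binds A plexins, went the other way, from 0 to 33.4 CPM in epiblast-like and from 0 to 121 CPM in mesoderm-like cells. It was read in 3 and 16 cells, at 1.29 ± 5.92 and 10 ± 21.9 CPM (log2 ratio -2.27). With a pseudocount of 10 CPM the calls of Sema4d (0.76) and Sema5b (-0.83) were lost. Summed by length, class 3 semaphorins were at 9.67 ± 11.4 RPKM in epiblast-like and 0.756 ± 2.70 RPKM in mesoderm-like cells, and class 4 at 8.92 ± 7.27 and 4.50 ± 4.07 RPKM.

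**Figure D3:**
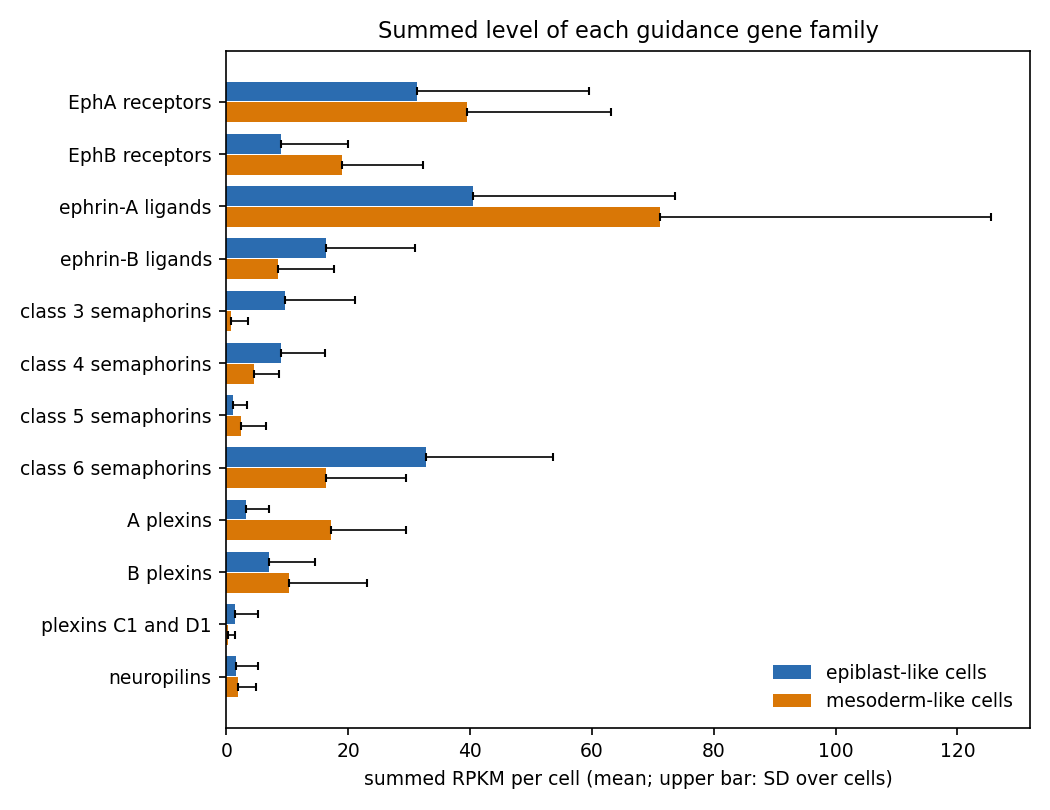
Summed RPKM per cell of each family in epiblast-like (blue) and mesoderm-like (orange) cells, as the mean with the SD over cells drawn upward. The A plexins (3.23 and 17.2) and class 3 semaphorins (9.67 and 0.756) differ most as ratios, in opposite directions, the ephrin-A ligands (40.5 and 71.1) and class 6 semaphorins (32.7 and 16.3) differ most in RPKM, and the ephrin-A ligands have the highest sum in both classes.

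Of the ephrins, Efnb1, a transmembrane ephrin on chromosome X (99136130 to 99148991), was higher in epiblast-like cells. It ranged from 0 over a median of 34.4 to 159 CPM in them and from 0 over 0 to 94.4 CPM in mesoderm-like cells. Reads were found in 35 of 43 (81.4%, 66.6 to 91.6%) and in 17 of 48 cells (35.4%, 22.2 to 50.5%). The means were 40.2 ± 40.4 and 5.78 ± 17 CPM (log2 ratio 2.60), and the ranges overlapped. Efnb2, the other ephrin-B read in many cells, ranged from 0 over 7.43 to 177 CPM and from 0 over 3.91 to 205 CPM, with a log2 ratio of -0.28. The leading ephrin-B by length therefore changed, with Efnb1 at 71.6% of 16.3 ± 14.7 RPKM in epiblast-like cells and Efnb2 at 61.6% of 8.45 ± 9.26 RPKM in mesoderm-like cells.

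Efna5, the lipid-anchored ephrin with the highest level, ranged from 0 over 77.7 to 316 CPM in epiblast-like and from 0 over 147 to 526 CPM in mesoderm-like cells. It was read in 33 of 43 and 40 of 48 cells, and its log2 ratio of -0.80 was under the 2-fold rule. It gave 59% and 58.9% of the summed ephrin-A level of 40.5 ± 33.2 and 71.1 ± 54.5 RPKM, so that here the same gene led in both classes. Efna2 ranged from 0 over 2.90 to 56.2 CPM and from 0 over 7.31 to 66.7 CPM, with reads in 28 and 35 cells and a log2 ratio of -0.70. Efna1 just passed the rule towards the mesoderm-like class (log2 ratio -1.05), at 13.7 ± 37.9 and 29.4 ± 63.8 CPM with reads in 10 and 13 cells. Its highest cells were at 171 and 285 CPM and both medians were 0. Among cells of plate rows A to D alone the log2 ratio of Efna1 was -0.10, so that its call does not hold there.

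Of the EphA receptors, Epha4 and Epha1 were higher in opposite classes. Epha4, on chromosome 1 (77367185 to 77515088), ranged from 0 over a median of 57.9 to 387 CPM in epiblast-like cells and from 4.73 over 260 to 704 CPM in mesoderm-like cells. It was read in 38 of 43 and 48 of 48 cells, the means were 76.1 ± 82.7 and 260 ± 172 CPM (log2 ratio -1.76), and the ranges overlapped. Epha1, on chromosome 6 (42358487 to 42373268), ranged from 0 over 29.3 to 463 CPM and from 0 over 0 to 117 CPM, with reads in 31 and 21 cells. Its means were 65.6 ± 95.1 and 21.1 ± 33.7 CPM (log2 ratio 1.59). Exons of Epha1 overlap those of Zyx on the other strand over 6.01% of their length, Zyx was at 178 ± 136 and 128 ± 98.5 CPM, and its part in the Epha1 difference was not tested. By length Epha1 made up 53.4% of the summed EphA level of 31.3 ± 28.3 RPKM in epiblast-like cells, and Epha4 81.8% of the 39.5 ± 23.6 RPKM in mesoderm-like cells.

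Epha7 and Epha2 were higher in epiblast-like cells and read in fewer cells. Epha7 ranged from 0 to 188 CPM and from 0 to 201 CPM with medians of 0, and was read in 19 of 43 and 9 of 48 cells at 26.7 ± 49.9 and 10.2 ± 33.3 CPM (log2 ratio 1.31). Its call was lost in plate rows A to D alone (0.91) and with a pseudocount of 10 CPM (0.86). Epha2 was read in the same numbers of cells, 19 and 9, but 13 and 7 of these held only 1 or 2 reads. Its highest cells were at 145 and 92.7 CPM, and the means of 7.62 ± 26.1 and 2.73 ± 14.2 CPM gave a log2 ratio of 1.21. In plate rows E to H alone the ratio of Epha2 was -0.41, so that its direction rests on the other rows.

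Of the EphB receptors, Ephb4 and Ephb2 were higher in mesoderm-like cells. Ephb4, the receptor of Efnb2, lies on chromosome 5 (137350109 to 137378669) and ranged from 0 over a median of 1.59 to 165 CPM in epiblast-like and from 0 over 70.8 to 257 CPM in mesoderm-like cells. It was read in 24 of 43 and 42 of 48 cells at 34.3 ± 51.6 and 74.3 ± 60.7 CPM (log2 ratio -1.09), and among cells of plate rows E to H alone the ratio was -0.70. Ephb2, on chromosome 4 (136647539 to 136835988), ranged from 0 over 0 to 28.2 CPM and from 0 over 0.190 to 65.7 CPM. It was read in 4 of 43 cells (9.30%, 2.59 to 22.1%) and in 24 of 48 cells (50%, 35.2 to 64.8%), at 1.09 ± 4.63 and 12.1 ± 18.7 CPM (log2 ratio -2.65). Summed by length the EphB receptors were at 8.91 ± 11 and 19 ± 13.2 RPKM, and Ephb4 gave 82.9% and 84.4% of it.

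**Figure D4:**
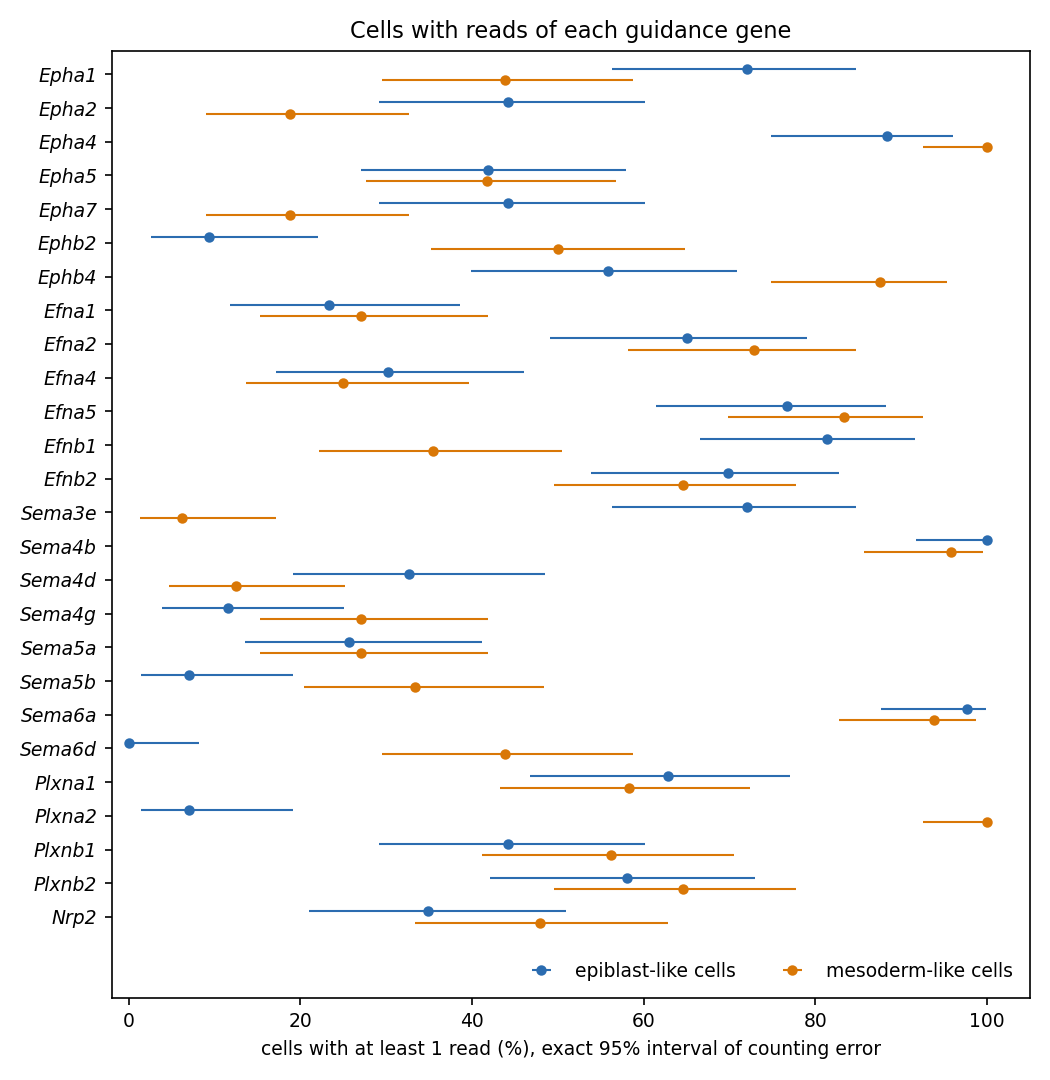
Percentage of cells with at least 1 read of each of the 26 genes read by 25% or more of a class, with exact 95% intervals that cover counting error only. The intervals of the classes are apart for Plxna2 (6.98% and 100%), Sema3e (72.1% and 6.25%), Sema6d (0% and 43.8%), Efnb1, Ephb2, Ephb4 and Sema5b, and overlap for Efna5, Efnb2 and Sema6a.

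The remaining measured genes were read in few cells. There were 15 with reads in under 25% of the cells of both classes, in at most 8 cells of a class and with no mean above 10.4 CPM. Of these 5 (Plxna3, Plxnc1, Ephb3, Sema3b and Sema4a) were called higher in epiblast-like and 2 (Efna3 and Efnb3) in mesoderm-like cells, all named after their values were seen, and 8 were not called. These 5 and 2 are among the 12 and 9 calls counted above. The share called among all genes read in so few cells was not computed, so these counts are no result about the genes. Sema4a was read in 5 of 43 epiblast-like cells at 4.64 ± 17.3 CPM and in 0 of 48 mesoderm-like cells, which allows a share of up to 7.40%. The 12 genes that were not measured included 3 without a read in any cell, Plxnb3, Epha6 and Epha8.

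Ligands were then matched with receptors, using 86 ligand and receptor pairs listed by hand. A class was said to hold a gene when at least 25% of its cells had a read. The list had no pair for Sema4b, read in 43 of 43 and 46 of 48 cells, so that it does not enter these counts. In 31 pairs both partners were held by some class. Both partners were held within the epiblast-like class in 19 pairs and within the mesoderm-like class in 21. The ligand was held by epiblast-like and the receptor by mesoderm-like cells in 17 pairs, and the reverse in 25, and in 11 pairs both classes held both partners. The order of the 17 and 25 turned to 8 and 6 with 50% of the cells asked for and to 14 and 13 with at least 5 reads in 25% of them. In 0 pairs was the ligand held by epiblast-like cells alone and the receptor by mesoderm-like cells alone, and 2 pairs, Efna1 with Epha2 and Efna1 with Epha7, had the opposite arrangement. Both rest on Efna1 lying on either side of the 25% limit, at 23.3% and 27.1% of the cells, and each pair was read together in 6 epiblast-like cells and 1 mesoderm-like cell. By system both partners were held in 21 of 41 ephrin-A, 4 of 12 ephrin-B and 6 of 33 semaphorin pairs.

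For Sema6a and Plxna2 the ligand was held by both classes and the receptor by the mesoderm-like class alone. Reads of both were found in 45 of 48 mesoderm-like cells (93.8%, 82.8 to 98.7%) and in 3 of 43 epiblast-like cells (6.98%, 1.46 to 19.1%). For Sema6d and Plxna1 the ligand was held by mesoderm-like cells and the receptor by both classes, and 13 of 48 mesoderm-like cells had reads of both. Sema3e was held by epiblast-like cells with its direct receptor Plxnd1 held by neither class. Efnb1 was held by both classes and Ephb2 by mesoderm-like cells, and with 50% of the cells asked for, this was the 1 pair whose ligand was held by epiblast-like and receptor by mesoderm-like cells alone. Reads of Efna5 and Epha4 occurred together in 29 of 43 and 40 of 48 cells, and of Efnb2 and Ephb4 in 15 and 28. The product of the single shares gives 29.2 and 40 cells for the first pair, 16.7 and 27.1 for the second, and 2.93 and 45 for Sema6a with Plxna2. Epha4 and Plxna2 were read in 48 of 48 mesoderm-like cells, so that the joint count there had to equal that of the ligand. Sema6a was read in 42 of 43 epiblast-like cells, which nearly fixed its joint count. Those comparisons cannot show whether partners are read together, and the others lay near the product. Pairs share genes, so that their counts are not independent of each other.

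**Figure D5:**
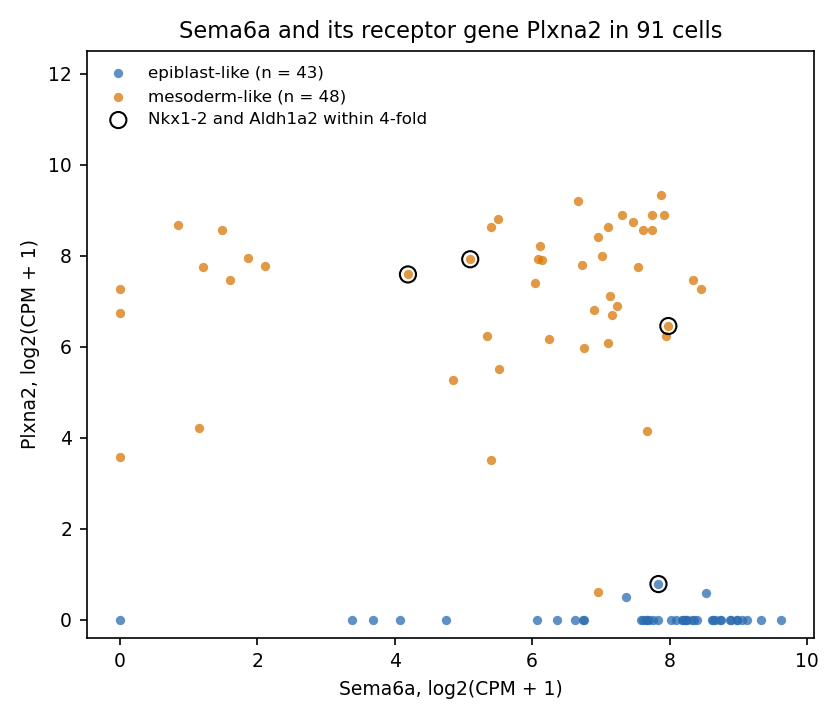
Sema6a against Plxna2 as log2(CPM + 1) in 91 cells, with 43 epiblast-like cells in blue, 48 mesoderm-like cells in orange and rings around the 4 cells with Nkx1-2 and Aldh1a2 within 4-fold of each other. Epiblast-like cells lie along the bottom over the whole range of Sema6a, and all but 1 of the mesoderm-like cells lie above them.

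The 4 cells with near levels of Nkx1-2 and Aldh1a2 followed their class for Plxna2. The epiblast-like one held 2 reads of Plxna2, 634 of Sema6a, 827 of Epha4 and none of Sema3e or Efnb1. The 3 mesoderm-like ones held 442, 564 and 217 reads of Plxna2 and 61, 51 and 633 of Sema6a, and none of Sema3e. Among mesoderm-like cells, the 33 with a read of Nkx1-2 had 186 ± 130 CPM of Plxna2 and the 15 without had 307 ± 205 CPM. Epha4 was at 242 ± 167 and 300 ± 180 CPM in them and Sema6d at 28.2 ± 48.6 and 53.1 ± 88.9 CPM. Sema6a and Efnb1, higher in the epiblast-like class, were also lower in the cells with an Nkx1-2 read, at 95.2 ± 91.1 against 134 ± 92.3 CPM and at 2.34 ± 5.94 against 13.4 ± 28.3 CPM. Ephb4 was lower too, at 68.6 ± 60.6 against 86.9 ± 60.9 CPM, while Ephb2 hardly differed, at 12.1 ± 19.6 and 12.2 ± 17.2 CPM. Sema3e went the other way, at 4.46 ± 25.1 against 0 CPM, nearly all from a single cell with 373 reads. The SD between cells was large beside each of these differences. A single read of Nkx1-2 was enough to be counted, and several of the 33 cells held under 1 CPM of it, such as 0.265, 0.314 and 0.401 CPM. The cells with and without a read are therefore not sharply apart.

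The genes whose levels followed Plxna2 most closely over the 91 cells, among 10784 genes read by 25% or more of them, were Msgn1 (Spearman correlation 0.85), Tbx6 (0.81), Cited1 (0.80), Aplnr (0.80) and Rspo3 (0.80). Msgn1 and Tbx6 are transcription factor genes of presomitic mesoderm. Within the 48 mesoderm-like cells the same correlations were 0.17, 0.11, 0.05, 0.25 and 0.14, so that the likeness was between the classes and weak inside one. All points share 1 plate and 1 pool, and the values are a description.

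Other genes of these pathways were counted by list. Of 28 Eph and ephrin effectors 26 were measured, with 5 (19.2%) higher in epiblast-like cells, 3 (11.5%) higher in mesoderm-like cells and a median log2 ratio of -0.20. These shares, and those of the next lists, stand beside the 8.18% and 9.55% of all measured genes, and the share of 3 is near its background. Among them Grb7, an adaptor of receptor tyrosine kinases that is also in the study's epiblast marker list, was at 42.3 ± 54.5 and 1.86 ± 8.28 CPM in epiblast-like and mesoderm-like cells. Chn2, a Rac GTPase-activating protein gene, was at 27.8 ± 43.7 and 5.96 ± 21.4 CPM, and Pick1, a PDZ domain protein gene, at 40.4 ± 45.4 and 12.4 ± 24 CPM. Kalrn, a guanine nucleotide exchange factor gene, was at 14.5 ± 20.6 and 58.4 ± 47.3 CPM. Of 32 semaphorin and plexin effectors 31 were measured, with 2 (6.45%, below the 8.18% of all genes) higher in epiblast-like and 6 (19.4%, against 9.55%) in mesoderm-like cells and a median of -0.18. Dpysl3 and Dpysl5, of the family that relays semaphorin signals to microtubules, were at 14.3 ± 26.4 and 20.4 ± 37.3 CPM in epiblast-like and at 79.1 ± 97.7 and 98.5 ± 95.1 CPM in mesoderm-like cells. Mical1, an oxidase gene that acts on actin downstream of plexins, was at 9.40 ± 20.4 and 38.2 ± 49.8 CPM. The kinase gene Pak1 was at 141 ± 96.9 and 54.4 ± 63 CPM.

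Of 23 Slit, netrin and other guidance genes 16 were measured, with 3 (18.8%, against 8.18%) higher in epiblast-like and 5 (31.2%, against 9.55%) in mesoderm-like cells and a median log2 ratio of -0.44. Draxin, a secreted guidance protein gene, was read in 1 of 43 and 26 of 48 cells, at 0.642 ± 4.21 and 21 ± 34.4 CPM. Some calls of this list rest on few cells. Robo2 and Unc5c were read in 4 and 6 mesoderm-like cells, and Ntn4 and Dcc in 4 epiblast-like cells each. These 4 genes were named after their values were seen. Of 8 genes of VEGF and its receptors, which share neuropilins, 7 were measured, with 0 (against 8.18%) higher in epiblast-like and 3 (42.9%, against 9.55%) in mesoderm-like cells and a median of 0.00. The 3 were Vegfa, Vegfc and Pgf, named after their values were seen. Their mesoderm-like means were only 3.90, 3.18 and 4.26 CPM, from reads in 11, 3 and 4 of 48 cells.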

How the data were processed

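The authors aligned single-end reads of each cell to GRCm38 (mm10) with HISAT2 and counted reads per gene with featureCounts, and deposited these counts without normalization for 91 cells. The versions, gene annotation and use of strand were not given in the sources used here. Reads of genes that overlap on opposite strands may therefore not be told apart. Symbols were matched for 53274 of 53379 identifiers. Counts were scaled to 1000000 per cell (CPM), and RPKM used exon lengths of GENCODE vM21 on GRCm38. All 91 cells were used, each a sorted well, with no doublet caller. Exact Clopper-Pearson intervals of 95% cover counting error only, since no molecular identifiers were used and several reads can stem from 1 molecule. Python 3.11.15, numpy 2.4.6, scipy 1.17.1, pandas 2.3.3, scikit-learn 1.9.0 and matplotlib 3.10.9 were used. The code of the fold rule was run on simulated data with changes put only in genes of at least 10 CPM. That run says nothing of changes in genes of lower level. Promoter windows are from RefSeq on GRCm38.p6.

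Named with values were genes of the group read by 50% or more of a class, and those at least 2-fold different and read by 25 to 50% of the higher class. Genes without any read were named only. Of the effector lists, up to 4 genes with the largest ratios among those read by 50% or more of the higher class could be named, and of genes like Plxna2 the 5 with the highest correlation. Nrp2, Plxnd1 and Nrp1 were named after their values were seen, as receptors or co-receptors of Sema3e and its class. The ligand and receptor pairs were listed by hand from general knowledge. The genes and lists were chosen with earlier results of these data known. Alternatives were other pseudocounts, filters, scalings, class rules, plate rows and thinning to 500000 counts per cell. No gene table of other stages was analysed here.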

Additional observations from a re-analysis of the deposited data

How the results depend on the processing

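With 1 pool of cells there is no replicate to leave out, and no paired analysis was possible because the cells form 1 group. The 12 genes called higher in epiblast-like cells became 4 with a pseudocount of 10 CPM, 5 with a mean of at least 10 CPM asked for and 7 with means of log2(CPM + 1). The 9 called higher in mesoderm-like cells became 3, 5 and 6 under the same settings. The cause was not tested, except that the first 2 settings weigh or drop genes of low level by construction. Of 21 named genes, 10 kept the same side of the 2-fold rule in all 13 settings. These include Efnb2, Plxnb1 and Plxnb2, which were called higher in neither class. Epha2 reversed to -0.41 in plate rows E to H, and the cause was not tested. Over all settings and named genes, 250 log2 ratios kept their side of the 2-fold rule, 13 fell below it and 5 passed it. Of the 250, 4 changed sign within 2-fold, for Efnb2, Plxna1 and Plxnb1. Clusters made without these genes put 1 cell in the other class.

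With reads in 50% of the cells asked for, 10 ligand and receptor pairs had both partners held, 6 within epiblast-like cells, 7 within mesoderm-like cells, 8 with the ligand in epiblast-like and the receptor in mesoderm-like cells, and 6 the reverse. With at least 5 reads in 25% of the cells, 13 lay within each class, 14 had the ligand in epiblast-like and the receptor in mesoderm-like cells and 13 the reverse. Pairs with the ligand in epiblast-like and the receptor in mesoderm-like cells alone were then 1, as with 50%, and the opposite arrangement 1, and 0 with 50%. The share of epiblast-like cells with Plxna2 was 0% with at least 5 reads asked for. Genes read in few cells are limited by what single cells capture, and a gene without reads in a cell may be missed rather than absent.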
